A study of Arabidopsis thaliana with 12 samples.

Results

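Salicylic acid is the plant hormone of defence against pathogens that feed on living tissue. The 10 genes described here hold its synthesis, its receptor and its best known outputs, and they were taken by locus from a table of 23387 genes. They are PR1 (AT2G14610), PR2 (AT3G57260), PR5 (AT1G75040), WRKY54 (AT2G40750), WRKY70 (AT3G56400), PAD4 (AT3G52430), EDS1 (AT3G48090), ICS1 (AT1G74710), PBS3 (AT5G13320) and NPR1 (AT1G64280). All 10 were in the table, and they are listed by locus, though the list was drawn up with earlier results of these data known, so the counts below are descriptions of a chosen list.

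RNA was sequenced from whole Arabidopsis thaliana seedlings of 4 genotypes, with 3 libraries each. The genotypes were h3.3kd;h2a.z, h3.3kd, h2a.z and the wild type Col. The histone variants H3.3 and H2A.Z replace H3 and H2A in some nucleosomes. The seedlings of every genotype were 7 days old, had grown at 21 °C in short days and spent the last 12 h at 27 °C, so no library shows the response to warmth itself. The genotype labels call the H3.3 line h3.3kd-1, and how the lines were made was not stated there. Values are TPM, transcripts per 1000000, which are scaled for gene length. The depth behind them is unknown.

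In Arabidopsis, ICS1 makes isochorismate in the plastid and PBS3 couples it to glutamate, giving a compound that breaks down to salicylic acid. EDS1 and PAD4 are lipase-like proteins that bind each other and act upstream of this synthesis. NPR1 is a receptor of the hormone and works with TGA factors, which bind DNA, while WRKY54 and WRKY70 tune both the synthesis and the response. PR1, PR2 and PR5 encode secreted antimicrobial proteins and are read as outputs. Growth in the warm is known to dampen salicylic acid synthesis in wild-type plants.

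The histone genes of each line were checked first. HTR4, HTR5 and HTR8, which encode H3.3, lay between 8.12 and 76.5 TPM in h3.3kd;h2a.z and between 9.28 and 96.5 TPM in h3.3kd, against 200.4 to 544 TPM in Col. HTA8, HTA9 and HTA11, which encode H2A.Z, lay between 0 and 92.7 TPM in h3.3kd;h2a.z and between 0 and 34.4 TPM in h2a.z, against 13.4 to 325 TPM in Col. HTA9 averaged 87.2 TPM in h3.3kd;h2a.z, against 32.1 TPM in h2a.z (log2 fold change 1.41 ± 0.22, adjusted p = 0.00031 by limma), so these lines also differ in an H2A.Z gene. HTR5 and HTR8 averaged 302 and 168 TPM in h2a.z, against 478 and 239.8 TPM in Col, and HTA8 averaged 8.86 TPM in h3.3kd, against 14.8 TPM in Col. Genes above 0 numbered 19590 (h3.3kd 2) to 22019 (h2a.z 3) per library, and h3.3kd 2 stood farthest from its own genotype's mean. The 10 root markers, all detected, summed to 1076 to 1305 TPM in h3.3kd;h2a.z, 1406 to 1790 in h3.3kd and 1523 to 2059 in h2a.z, against 1936 to 2412 in Col, and most of each sum was PYK10. Counted by gene, 7 were lower in h3.3kd;h2a.z, 4 in h3.3kd and 0 in h2a.z than in Col, with a median log2 fold change of -1.01, -0.73 and 0.08. Of all tested genes 12.6%, 11.9% and 4.56% were lower in these lines. IRT1 alone among the root markers was called higher, in h2a.z (1.15 ± 0.32, adjusted p = 0.025 by limma). The 8 markers of leaf mesophyll and guard cells, all detected, summed to 30147 to 31224, 24366 to 29506 and 20798 to 24404 TPM in the same 3 lines, against 24329 to 31198 in Col, most of it RBCS1A. By gene, 1 was lower than in Col in h3.3kd;h2a.z, 4 in h3.3kd and 1 in h2a.z, and 1 was higher in h3.3kd. Their median log2 fold change was -0.33, -0.38 and -0.35. The 7 seed and embryo markers summed to 176 to 406, 43.5 to 71.1 and 53.1 to 162 TPM, against 7.92 to 12.3 in Col, and LEC2 was at 0 in every h3.3kd and Col library. CRA1 and CRC, which encode storage proteins, made up most of these sums in the 3 lines, and with OLEO1 they were the 3 of 5 tested markers that were higher than in Col in each. OLEO2 did not pass in any of the 3, and ABI3 was lower in h2a.z, at 0.358 TPM, against 2.99 TPM in Col. The part of these differences in the results below was not tested.

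The 3 PR genes stood far apart in level. PR1, the usual marker of the hormone's action, was at 0 in 11 libraries and at 0.239 TPM in Col 1. PR5, a thaumatin-like protein, had 0.810, 0 and 0.0874 TPM in h3.3kd;h2a.z, 0 in all 3 libraries of h3.3kd and 14.98, 25.4 and 23.6 TPM in h2a.z, against 3.43, 4.10 and 3.65 TPM in Col. The h2a.z libraries lay above all others and the libraries of both lines with lowered H3.3 lay below all of Col. PR2, a beta-glucanase, had 0.233, 0 and 0.678 TPM in h3.3kd;h2a.z, 0.195, 1.32 and 1.51 in h3.3kd and 2.70, 1.85 and 2.37 in h2a.z, against 0, 0.314 and 0.342 TPM in Col. Here too h2a.z was highest, and the other 3 genotypes overlapped.

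Both WRKY factors had their highest mean in h2a.z. WRKY70 had 2.80, 4.21 and 1.61 TPM in h3.3kd;h2a.z, 0.801, 1.41 and 0.731 in h3.3kd and 13.4, 14.8 and 12.0 in h2a.z, against 3.55, 1.81 and 2.47 TPM in Col. The h2a.z libraries lay above and the h3.3kd libraries below those of every other genotype. WRKY54 was low throughout, with 0.923, 0.969 and 0.224 TPM in h3.3kd;h2a.z, 0, 0 and 0.0509 in h3.3kd and 0.488, 1.91 and 1.18 in h2a.z, against 0.256, 0.351 and 0.407 TPM in Col. It and PR1 did not reach 1 TPM in 3 libraries and were not tested, which leaves 8 of the 10 genes. PR2 and PBS3 reached that level only through their h2a.z libraries.

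The pair upstream of synthesis was also highest in h2a.z. PAD4 had 5.95, 4.88 and 3.67 TPM in h3.3kd;h2a.z, 2.77, 3.13 and 5.16 in h3.3kd and 10.7, 12.7 and 12.1 in h2a.z, against 4.60, 5.18 and 5.15 TPM in Col. EDS1 had 22.9, 24.2 and 19.3 TPM in h3.3kd;h2a.z, 17.0, 23.2 and 19.3 in h3.3kd and 31.4, 37.8 and 34.1 in h2a.z, against 16.2, 21.6 and 18.6 TPM in Col. For both, every h2a.z library lay above the other 9, which overlapped by genotype. EDS1 shares 0.977% of its 50-base stretches with other genes, among them its neighbour AT3G48080, so a few reads could have been divided between them.

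The synthesis genes and the receptor were less alike. ICS1 had 6.27, 6.51 and 5.88 TPM in h3.3kd;h2a.z, 6.76, 10.5 and 7.06 in h3.3kd and 5.54, 5.51 and 5.86 in h2a.z, against 6.19, 3.24 and 3.68 TPM in Col. PBS3 had 1.82, 1.03 and 0.492 TPM in h3.3kd;h2a.z, 0.226, 0.813 and 0.328 in h3.3kd and 1.36, 2.20 and 3.21 in h2a.z, against 0.568, 0.308 and 0.149 TPM in Col. ICS1 was highest in h3.3kd, and PBS3 was highest in h2a.z with 1 library inside the range of h3.3kd;h2a.z. NPR1 had 34.1, 34.5 and 30.1 TPM in h3.3kd;h2a.z, 25.0, 48.2 and 36.1 in h3.3kd and 40.9, 37.5 and 33.3 in h2a.z, against 23.5, 29.2 and 37.1 TPM in Col, and all 4 genotypes overlapped. With the genotypes of each gene put in order of their means, the neighbours that differed beyond their spread by limma were h2a.z above Col for PR5 and PAD4, h2a.z above h3.3kd;h2a.z for WRKY70 and EDS1, Col above h3.3kd;h2a.z for PR5 and Col above h3.3kd for WRKY70. No other neighbours in these orders passed the test.

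**Figure D1:**
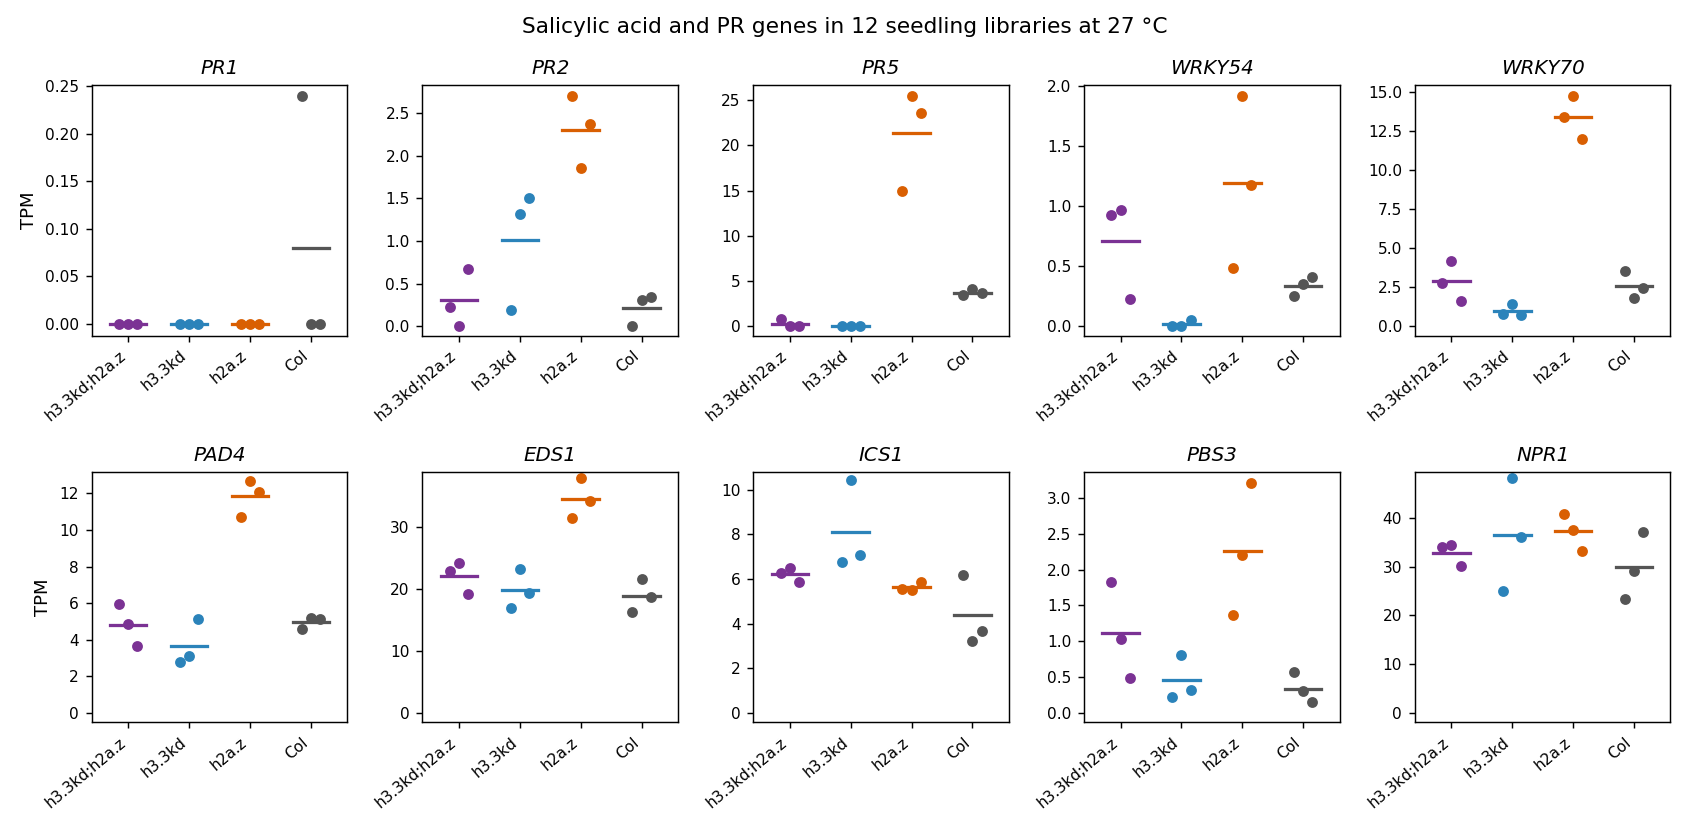
TPM of the 10 genes in each library (points) with the genotype mean (line), 1 panel per gene with its own axis. The h2a.z points of PR5, WRKY70, PAD4 and EDS1 lie above all others, NPR1 overlaps across genotypes, and PR1 is at 0 except in Col 1.

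The 250 bases upstream of the transcription start were read from the RefSeq assembly TAIR10.1, whose nuclear chromosomes are those of TAIR10, and 3 short motifs known from this pathway were searched on both strands. Of these, 4 stretches are given 5′ to 3′ on the strand of the gene, with matches in capitals. PR5, WRKY70 and EDS1 are shown because their mRNA changed in h2a.z and they hold the W box core that WRKY factors bind, and ICS1 because its mRNA did not pass the test there and it holds another motif.
PR5 (chr1:28177420-28177669, plus strand): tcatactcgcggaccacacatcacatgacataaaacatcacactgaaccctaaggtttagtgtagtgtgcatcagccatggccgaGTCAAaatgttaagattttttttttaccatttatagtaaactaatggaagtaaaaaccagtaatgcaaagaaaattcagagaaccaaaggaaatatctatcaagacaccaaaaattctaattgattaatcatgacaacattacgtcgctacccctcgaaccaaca
WRKY70 (chr3:20910624-20910873, minus strand): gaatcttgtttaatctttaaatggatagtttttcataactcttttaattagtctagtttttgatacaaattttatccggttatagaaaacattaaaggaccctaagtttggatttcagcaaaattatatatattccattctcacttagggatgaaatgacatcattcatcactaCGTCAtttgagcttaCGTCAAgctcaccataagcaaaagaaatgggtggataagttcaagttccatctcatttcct
EDS1 (chr3:17758148-17758397, minus strand): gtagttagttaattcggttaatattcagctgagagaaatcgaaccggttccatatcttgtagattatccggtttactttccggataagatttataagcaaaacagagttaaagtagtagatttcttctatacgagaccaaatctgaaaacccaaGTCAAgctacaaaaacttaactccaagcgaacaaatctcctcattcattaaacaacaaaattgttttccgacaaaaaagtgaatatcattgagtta
ICS1 (chr1:28070045-28070294, plus strand): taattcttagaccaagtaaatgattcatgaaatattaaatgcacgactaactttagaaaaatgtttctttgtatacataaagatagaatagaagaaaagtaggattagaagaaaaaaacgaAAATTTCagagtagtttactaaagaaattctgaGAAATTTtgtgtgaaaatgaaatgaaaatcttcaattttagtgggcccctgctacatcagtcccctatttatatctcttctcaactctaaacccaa
The W box core TTGAC, or GTCAA where it lies on the other strand, was found upstream of 4 of the 10 genes (PR1, PR5, WRKY70 and EDS1) and of 44.9% of 27443 protein-coding genes. The core of TGA factor sites, TGACG, was found upstream of WRKY70 alone among the 10, at 2 places of which the second overlaps the W box core, and of 18.6% of all genes. The motif GAAATTT of the factors CBP60g and SARD1, which activate ICS1, was found at 2 places upstream of ICS1 and of none of the other 9, against 12.5% of all genes. A match of letters is a description and not a binding site.

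The comparison of h2a.z with Col asks what loss of normal H2A.Z changes in warm seedlings. Both tested PR genes, WRKY70, EDS1, PAD4 and PBS3 rose in h2a.z, while ICS1 and NPR1 did not pass the test. The changes were measured by limma on log2(TPM + 1), a scale that understates changes of low genes, and a gene was called at a Benjamini-Hochberg adjusted p under 0.05 over all 19937 tested genes. The p-values measure only the spread between these samples, since the labels do not say whether replicates were separate cultures. In whole seedlings, more cells of a type and more RNA per cell cannot be told apart.

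PR5 rose to 21.3 ± 5.58 TPM in h2a.z, against 3.73 ± 0.344 in Col (SD, n = 3 each), a log2 fold change of 2.21 ± 0.26 (SE, adjusted p = 4.5e-05 by limma). WRKY70 rose by 2.02 ± 0.27 (adjusted p = 0.00014 by limma), PR2 by 1.45 ± 0.30 (0.0043), PAD4 by 1.1 ± 0.22 (0.0032) and EDS1 by 0.84 ± 0.16 (0.0024). PBS3 rose by 1.25 ± 0.29 (adjusted p = 0.0090 by limma), and its call ended without h2a.z 3, at 0.052. For ICS1 the difference was 0.34 (95% interval -0.14 to 0.83) and for NPR1 0.32 (-0.13 to 0.78), both at an adjusted p of 0.37 by limma. In all, 6 of the 8 genes were higher, where 10.5% of all tested genes were, and their median change was 1.18, against 0.05 over all genes. None of the 8 was lower by limma, also at an unadjusted p under 0.05 (0 genes), where 4.56% of all tested genes were. Of the 6 genes that pass the low-value filter without the h2a.z libraries, 4 were higher.

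The wider pathway was read from 5 lists of 59 genes, of which 57 were in the table and 51 were tested. In h2a.z 25 of the 51 were higher than in Col and 0 lower (0 also at an unadjusted p under 0.05 by limma), with a median change of 0.67. Of the 43 that pass the filter without the h2a.z libraries, 19 were higher (44.2%, against 8.98% of all such genes).

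By list, 7 of 8 other WRKY factors rose. WRKY46 averaged 10.9 ± 2.76 TPM in h2a.z, against 0.299 ± 0.171 in Col (SD, n = 3 each), a log2 fold change of 3.19 ± 0.31 (adjusted p = 8.6e-06 by limma). WRKY51 rose by 1.86 ± 0.24 and WRKY40, a repressor of defence genes, by 2.002 ± 0.29. Of 15 synthesis and breakdown genes 8 rose, among them the activators SARD1 (1.37 ± 0.24) and CBP60g (1.42 ± 0.26) and the phenylalanine ammonia-lyase PAL2 (0.83 ± 0.15). WRKY51 and SARD1 pass the low-value filter only through the h2a.z libraries, where they are high. Of 10 EDS1 partners and helper receptors 5 rose, with SAG101, an EDS1 partner, at 1.06 ± 0.18, AT3G48080, the neighbour of EDS1, at 1.19 ± 0.25 and the helper receptor ADR1 at 0.85 ± 0.20. The call of ADR1 ended without h2a.z 3, at an adjusted p of 0.052 by limma.

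Of 13 NPR, NIMIN and TGA genes 3 rose in h2a.z. They were AT4G26120, a gene with no symbol in the annotation used (1.70 ± 0.25), TGA7 (0.94 ± 0.18) and the receptor NPR3, which represses the response (0.81 ± 0.17). Of 5 response genes 2 rose, both of which pass the low-value filter only through the h2a.z libraries, where they are high. PCC1, a gene induced by pathogens and by the clock, had 6.12, 1.88 and 3.07 TPM in h2a.z and was listed at 0 in all 3 Col libraries (adjusted p = 0.00017 by limma), and AIG1, induced in bacterial infection, averaged 4.43 ± 2.72 TPM, against 0.589 ± 0.0573 in Col (1.66 ± 0.29, adjusted p = 0.0011 by limma).

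**Figure D2:**
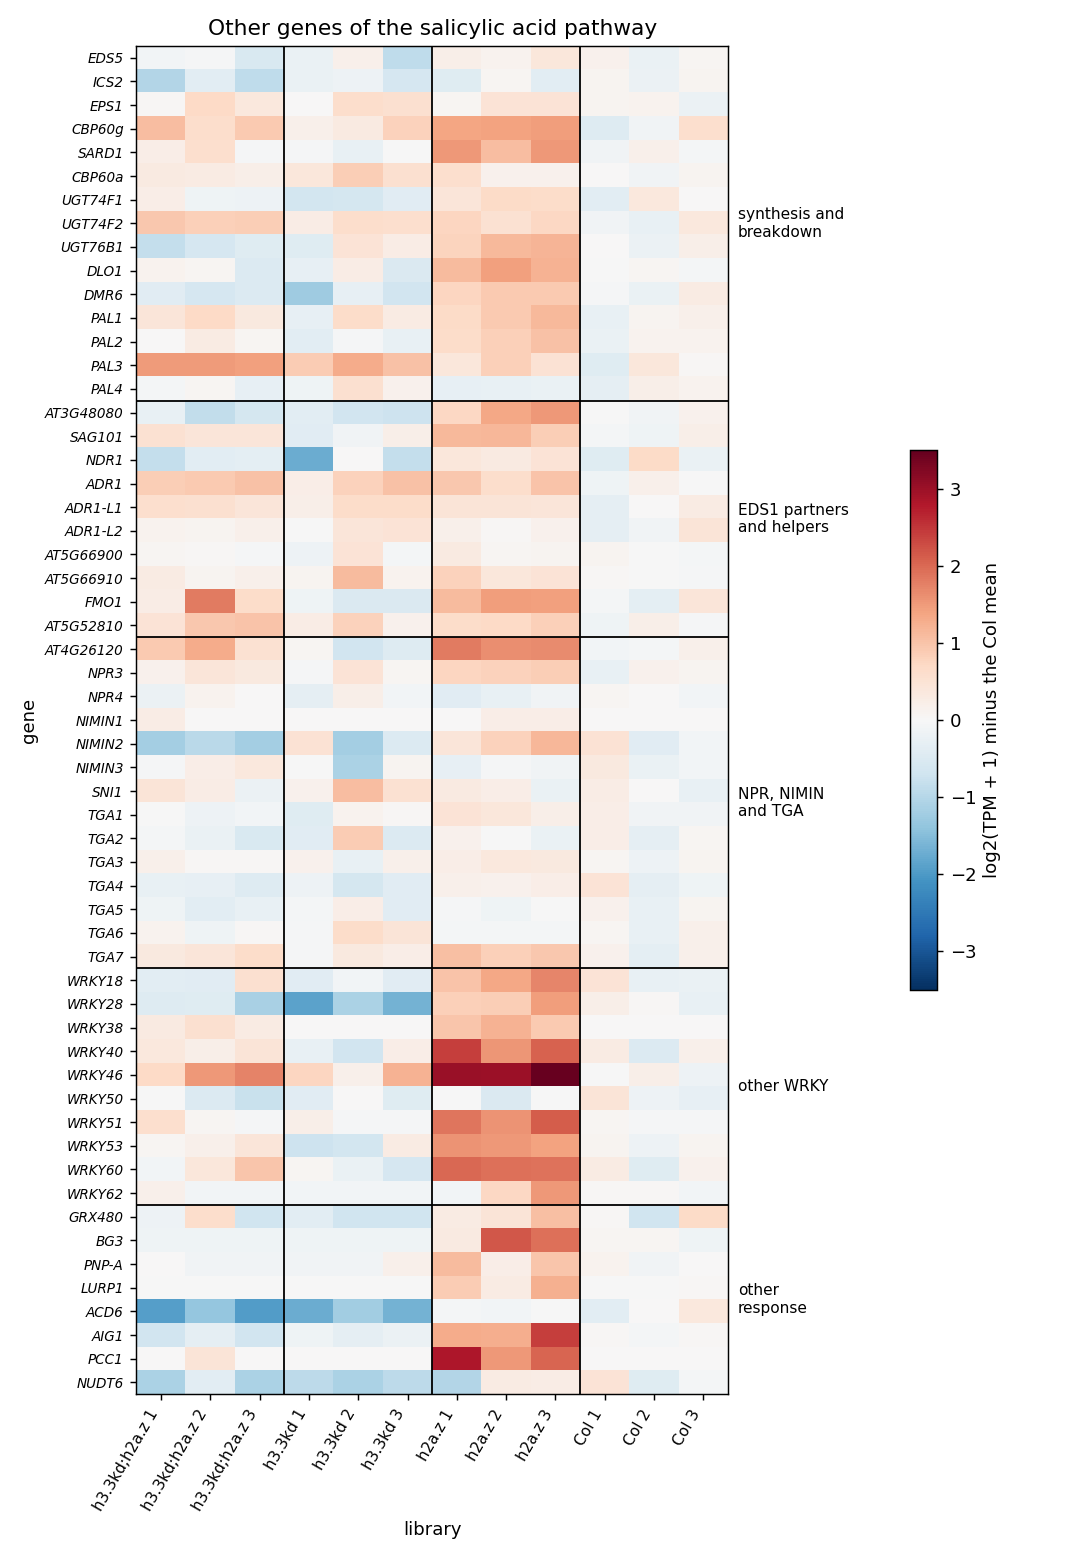
Other genes of the pathway (rows, by list) in each library (columns, by genotype), coloured by log2(TPM + 1) minus the mean of Col, for all 57 genes in the table. The h2a.z columns are red over most WRKY rows, with WRKY46 the darkest, and PAL3 is red and ACD6 blue in both lines with lowered H3.3.

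The comparison of h3.3kd;h2a.z with h2a.z asks what lowering H3.3 changes in a line already low in H2A.Z mRNA. Of the 6 genes that rose in h2a.z over Col, all but PBS3 were lower in h3.3kd;h2a.z than in h2a.z. PR5 fell to 0.299 ± 0.445 TPM in h3.3kd;h2a.z, against 21.3 ± 5.58 in h2a.z (SD, n = 3 each), a log2 fold change of -4.12 ± 0.26 (adjusted p = 1.9e-07 by limma). WRKY70 fell by 1.95 ± 0.27 (adjusted p = 0.00014 by limma), PR2 by 1.37 ± 0.30 (0.0042), PAD4 by 1.15 ± 0.22 (0.0016) and EDS1 by 0.62 ± 0.16 (0.012). The call of EDS1 ended when h3.3kd;h2a.z 3 (0.063) or h2a.z 2 (0.060) was left out. PBS3 differed by -0.63 (95% interval -1.26 to 0.00, adjusted p = 0.14), ICS1 by 0.12 (-0.36 to 0.60, adjusted p = 0.75) and NPR1 by -0.17 (-0.62 to 0.28, adjusted p = 0.61). Of all tested genes 19.3% were lower and 5.34% higher, and the median over the 8 genes was -0.89, against -0.15 over all genes. Of the 6 genes that pass the low-value filter without the h2a.z libraries, 4 were lower (17.7% of all such genes were). Of the 10 root markers 6 were also lower, with a median of -0.86, and their part in the result was not tested. Both this comparison and that of h2a.z with Col use the h2a.z libraries, so the directions in them are linked.

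Of the 51 pathway genes 21 were lower in h3.3kd;h2a.z than in h2a.z and 1 was higher, PAL3 (0.89 ± 0.20, adjusted p = 0.0041 by limma). Of the 43 that pass the filter without the h2a.z libraries, 16 were lower (37.2%, against 17.7% of all such genes). The lower ones were 7 of 8 WRKY factors, 5 of 15 synthesis and breakdown genes, 4 of 13 NPR, NIMIN and TGA genes, 3 of 5 response genes and 2 of 10 EDS1 partners and helpers.

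AIG1 fell by 2.21 ± 0.29, PCC1 by 1.98 ± 0.29 and ACD6, a membrane protein that promotes salicylic acid build-up, by 1.69 ± 0.23. The synthesis and breakdown genes with the smallest adjusted p were UGT76B1, a glucosyltransferase (fell by 1.65 ± 0.22), and the salicylate hydroxylases DMR6 (fell by 1.35 ± 0.23) and DLO1 (fell by 1.34 ± 0.25). WRKY46, WRKY28 and WRKY51 fell by 1.86 ± 0.31, 1.72 ± 0.28 and 1.66 ± 0.24, and AT3G48080 and NIMIN2, whose protein binds NPR1, by 1.78 ± 0.25 and 1.90 ± 0.37. Among these genes AIG1, PCC1, DLO1 and WRKY51 pass the low-value filter only through the h2a.z libraries, where they are high, which favours a fall here. SAG101, AT4G26120 and NPR3 were also called lower (adjusted p = 0.024, 0.031 and 0.042 by limma), and these calls ended without several single libraries. SAG101 was at 0.055 to 0.095 without h3.3kd;h2a.z 1, 2 or 3 or h2a.z 1 or 2. AT4G26120 was at 0.066 to 0.14 without h3.3kd;h2a.z 1 or 3 or any h2a.z library. NPR3 was at 0.050 to 0.16 without any library of h3.3kd;h2a.z or h2a.z, h3.3kd 3 or Col 3.

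Against Col, h3.3kd;h2a.z had 1 of the 8 genes lower and 0 higher by limma (0 also at an unadjusted p under 0.05), where 12.6% of all tested genes were lower and 6.17% higher. The lower one was PR5, at 0.299 ± 0.445 TPM in h3.3kd;h2a.z, against 3.73 ± 0.344 in Col (SD, n = 3 each), a log2 fold change of -1.91 ± 0.26 (adjusted p = 0.00017 by limma). WRKY70 differed by 0.07 (95% interval -0.50 to 0.65), PAD4 by -0.05 (-0.53 to 0.42), EDS1 by 0.22 (-0.12 to 0.57), PR2 by 0.08 (-0.57 to 0.72), PBS3 by 0.62 (-0.01 to 1.25), ICS1 by 0.47 (-0.02 to 0.95) and NPR1 by 0.15 (-0.30 to 0.60). ICS1 was called higher without Col 1, at 0.047.

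Relative to Col, 8 of the 51 pathway genes stood higher and 2 lower in h3.3kd;h2a.z. Over all tested genes the shares were 6.17% higher and 12.6% lower. PAL3, a phenylalanine ammonia-lyase, averaged 34.8 ± 0.946 TPM in h3.3kd;h2a.z, against 12.2 ± 3.64 in Col (SD, n = 3 each; 1.48 ± 0.20, adjusted p = 0.00014 by limma), and ACD6 averaged 3.86 ± 1.17 TPM, against 15.4 ± 4.25 in Col (-1.75 ± 0.23, adjusted p = 0.00013 by limma). The salicylic acid glucosyltransferase UGT74F2 rose by 0.88 ± 0.16 and ADR1 by 0.93 ± 0.20. The other calls, higher for CBP60g, AT5G52810, ADR1-L1, AT4G26120 and WRKY46 and lower for ICS2, each ended when certain single libraries were left out. CBP60g was at 0.081 to 0.14 without h3.3kd;h2a.z 1 or 3 or Col 1 or 2, and AT5G52810 at 0.052 to 0.070 without h3.3kd;h2a.z 2 or 3 or Col 1. ADR1-L1 was at 0.054 to 0.17 without any h3.3kd;h2a.z or h2a.z library or Col 1 or 2. AT4G26120 was at 0.054 to 0.098 without h3.3kd;h2a.z 1 or 2 or Col 1, and WRKY46 at 0.051 without h3.3kd;h2a.z 3. ICS2 was at 0.052 to 0.16 without h3.3kd;h2a.z 1 or 3, h2a.z 3 or Col 1 or 3. The number higher was 5 when h3.3kd;h2a.z 2 was left out and 4 when h3.3kd;h2a.z 3 or Col 1 was. The number lower was 1 without h3.3kd;h2a.z 1 or 3, h2a.z 3 or Col 1 or 3, and 4 without h3.3kd 1 or 2. ICS2, the second isochorismate synthase, was named after its values were seen.

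In h3.3kd against Col, which asks what lowered H3.3 changes alone, PR5 and WRKY70 were lower and ICS1 was higher. Of all tested genes 11.9% were lower and 5.41% higher. PR5 was listed at 0 in the 3 h3.3kd libraries, against 3.43 to 4.10 TPM in Col (adjusted p = 8.6e-05 by limma). WRKY70 averaged 0.979 ± 0.371 TPM in h3.3kd, against 2.61 ± 0.881 in Col (SD, n = 3 each; log2 fold change -0.85 ± 0.27, adjusted p = 0.042 by limma), and ICS1 averaged 8.09 ± 2.05 TPM, against 4.37 ± 1.59 (0.78 ± 0.22, adjusted p = 0.029 by limma). Both calls ended in a fit of these 2 genotypes alone, at 0.10 for WRKY70 and 0.16 for ICS1. With the replicate number as a block in that fit they were at 0.12 and 0.18. The call of WRKY70 also ended without h3.3kd;h2a.z 1 (0.059), h3.3kd 1 (0.089), h3.3kd 3 (0.12), h2a.z 1, 2 or 3 (0.057 each), Col 1 (0.16) or Col 3 (0.082), and that of ICS1 without h3.3kd 2 (0.063), Col 2 (0.099) or Col 3 (0.088). PR2 differed by 0.66 (95% interval 0.01 to 1.31, adjusted p = 0.15) and was called higher without h3.3kd 1, at 0.030. PAD4, EDS1, PBS3 and NPR1 differed by -0.38, 0.07, 0.11 and 0.25, with adjusted p from 0.25 to 0.84 by limma.

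Of the 51 pathway genes, lowered H3.3 alone gave 4 calls above Col and 3 below it. Over all tested genes 5.41% were higher and 11.9% lower. ACD6 averaged 4.59 ± 1.1 TPM in h3.3kd, against 15.4 ± 4.25 in Col (SD, n = 3 each; -1.54 ± 0.23, adjusted p = 0.00063 by limma), and WRKY28, which activates ICS1, fell by 1.54 ± 0.28 (adjusted p = 0.0021 by limma). PAL3 rose by 1.07 ± 0.20 (adjusted p = 0.0025 by limma). The calls of CBP60a, UGT74F2 and ADR1 (higher) and DMR6 (lower) each ended when certain single libraries were left out. CBP60a was at 0.051 to 0.078 without h3.3kd 2 or 3 or Col 1 or 2, and ADR1 at 0.057 to 0.13 without h3.3kd 2 or 3 or Col 1 or 3. UGT74F2 was at 0.058 to 0.16 without any library but h3.3kd 1 or Col 3, and DMR6 at 0.056 to 0.14 without any but h3.3kd 2 or Col 2. The number higher was 2 without h3.3kd 2 or Col 2, 1 without h3.3kd 3 or Col 1, and 1 over the 2 genotypes alone, without or with the replicate block. CBP60a, ADR1, UGT74F2 and DMR6 were at 0.13, 0.16, 0.19 and 0.19 over the 2 genotypes without that block. With it they were at 0.14, 0.13, 0.11 and 0.19. UGT74F2 was named after its values were seen.

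**Figure D3:**
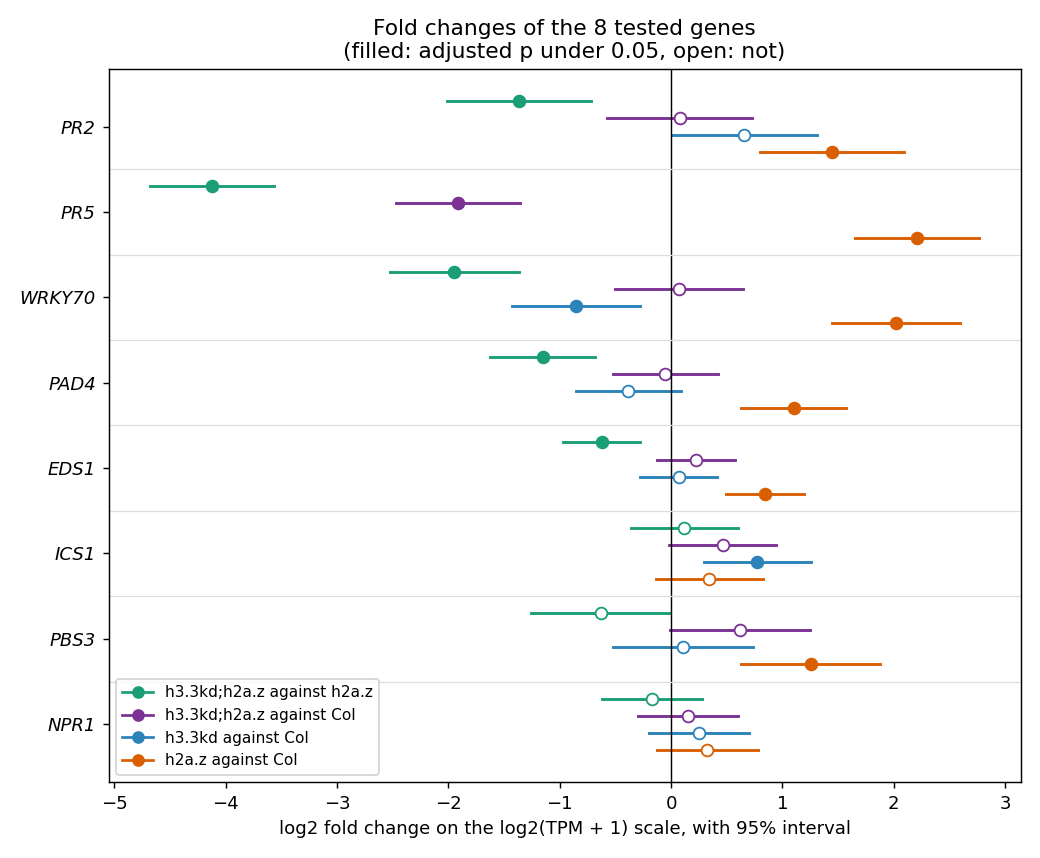
Log2 fold changes of the 8 tested genes with 95% intervals in 4 comparisons, filled where the adjusted p was under 0.05. PR5 is at -4.12 in h3.3kd;h2a.z against h2a.z and at 2.21 in h2a.z against Col; its point for h3.3kd against Col is left out because h3.3kd was at 0, and ICS1 and NPR1 have open points in h2a.z against Col.

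Between h3.3kd;h2a.z and h3.3kd, which differ in H2A.Z, none of the 8 genes passed (0 by limma, and 1 at an unadjusted p under 0.05), where 2.43% of all tested genes were higher and 1.83% lower. That one was WRKY70, with a log2 fold change of 0.93 ± 0.27 (adjusted p = 0.074 by limma), and it was called higher without h3.3kd;h2a.z 3, at 0.038, or without h3.3kd 2, at 0.035. PR5 differed by 0.33 and PAD4 by 0.33, with 95% intervals of -0.23 to 0.88 and -0.14 to 0.80. Of the pathway genes 2 of 51 were higher, AT4G26120 (1.27 ± 0.25, adjusted p = 0.0087 by limma) and FMO1, which makes N-hydroxypipecolate (1.29 ± 0.35, adjusted p = 0.0498 by limma). FMO1 passes the low-value filter only through the h2a.z libraries. Of the 43 pathway genes that pass without those, 1 was higher (2.33%, against 2.46% of all such genes). FMO1 lost its call without any single library but h3.3kd;h2a.z 1, at 0.054 to 0.22, and AT4G26120 lost its without h3.3kd;h2a.z 2, at 0.056. The number higher was 0 when h3.3kd;h2a.z 2 was left out and 1 when h3.3kd;h2a.z 3, h3.3kd 1 or any h2a.z or Col library was, and 1 gene was lower without h3.3kd 1.

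Set directly against h2a.z, h3.3kd had 5 of the 8 genes lower and 0 higher by limma (0 also at an unadjusted p under 0.05), where 24.7% of all tested genes were lower and 9.4% higher. PBS3 and PR2 pass the low-value filter only through the h2a.z libraries, and of the 6 genes that pass without them 4 were lower, against 22.9% of all such genes. WRKY70 averaged 0.979 ± 0.371 TPM in h3.3kd, against 13.4 ± 1.38 in h2a.z (SD, n = 3 each; log2 fold change -2.87 ± 0.27, adjusted p = 2.5e-06 by limma). PAD4, EDS1 and PBS3 fell by 1.48 ± 0.22, 0.78 ± 0.16 and 1.15 ± 0.29, and PR5 was at 0 in h3.3kd. PR2 missed the threshold (-0.78 ± 0.30, adjusted p = 0.058 by limma) and was called without h3.3kd 2, at 0.041, or without h3.3kd 3, at 0.038.

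The interaction asks whether lowering H3.3 acted differently in h2a.z plants and in Col. It is the log2 fold change of h3.3kd;h2a.z over h2a.z minus that of h3.3kd over Col. It was below 0 for all 8 genes and passed for 2, where 1.85% of all tested genes passed below 0 and 0.637% above it. The median was -0.76 over the 8 genes and -0.04 over all tested genes, and the share of all genes below 0 was not counted. High values in the h2a.z libraries lower this term for any gene, and 6 of the 8 genes were higher in h2a.z than in Col. PR2 and PBS3 pass the low-value filter only through the h2a.z libraries, where they are high. Of the 6 genes that pass without those libraries 1 passed in the interaction, PR5, against 1.3% of all such genes. For PR2 it was -2.03 ± 0.43 (adjusted p = 0.020 by limma), and for PR5 -1.88 ± 0.37 (0.013), where h3.3kd was at 0, so that a fall from Col could not go further and the value depends on the pseudocount. The call of PR2 ended without h3.3kd;h2a.z 1 (0.055), h3.3kd;h2a.z 2 (0.052), h3.3kd 3 (0.058), h2a.z 1 or 3 (0.054 each) or Col 1 (0.053). With a pseudocount of 0.5 the call of PR5 ended, at 0.082, and with 0.1 both ended, at 0.086 for PR2 and 0.70 for PR5. WRKY70, EDS1 and PAD4 had -1.09, -0.69 and -0.77, with adjusted p from 0.16 to 0.27 by limma.

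Of the 51 pathway genes 5 passed in the interaction, all below 0, but 3 of them (WRKY51, AIG1 and PCC1) pass the low-value filter only through the h2a.z libraries. Of the 43 that pass without those, 2 passed (4.65%, against 1.3% of all such genes). WRKY46 had -2.59 ± 0.44 (adjusted p = 0.0052 by limma), UGT76B1 -1.76 ± 0.31 (0.0063), WRKY51 -1.71 ± 0.34 (0.015) and AIG1 -1.99 ± 0.41 (0.017). The fifth was PCC1, at 0 in every h3.3kd and Col library, so that its term only repeats the difference between h3.3kd;h2a.z and h2a.z. Without h3.3kd;h2a.z 1 the number was 3, with AIG1 at 0.052 and PCC1 at 0.057, and PCC1 was at 0.055 without h3.3kd;h2a.z 3.

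For 5 of the genes, those whose genotype means span at least 1 on the log2 scale, the most similar of 7503 other genes were sought by the root mean square difference of centred log2(TPM + 1) over the 12 libraries. The nearest to PR5 were IMD1 (0.34) and IPMI1 (0.57), enzymes of methionine chain elongation. IMD1 averaged 3.495 TPM in h3.3kd;h2a.z, 2.15 in h3.3kd and 77.0 in h2a.z, against 15.2 in Col. The nearest to WRKY70 were CNGC13 (0.29), a cyclic nucleotide-gated channel, and CXE13 (0.31), a carboxylesterase. PAD4 was nearest to CYP705A18 and Hop3 (0.21 each), PBS3 to GDU4 and CYP705A33 (0.27 each), and PR2 to the kinase MPK3 (0.32) and to G6PD4 (0.34). In all 10 of these genes the mean was highest in h2a.z, as in the 5 genes they were matched to, so this follows from how they were chosen. The values are a description with no test.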

How the data were processed

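TPM values of 23387 genes in 12 libraries were deposited by the authors, and each library's column sums to 1000000. Per the submitters' processing notes, fastp 0.20.1, HISAT2 2.1.10, HTSeq 0.11.2 and DESeq2 1.26.0 were used with genome build TAIR10. Gene lengths and counting mode are not given in the sources used. TPM keeps no read counts, so count tests were not run.

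Genes with at least 1 TPM in at least 3 libraries were tested on log2(TPM + 1) with limma 3.58.1 in R 4.3.3, as 1 model with a mean per genotype and a variance trend over intensity, after a test on simulated data. Benjamini-Hochberg adjustment ran over the 19937 tested genes of each comparison. Tables and figures were made with Python 3.11.15, numpy 2.4.6, pandas 2.3.3 and matplotlib 3.10.9. Symbols came from RefSeq TAIR10.1, which matched 23235 identifiers.

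The members and lists were chosen with earlier results of these data known. All members are named. Of each pathway list, up to 3 called genes per comparison with the smallest adjusted p are named, and 2 likeness matches per member.

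Same-numbered libraries of h3.3kd and Col deviated together from their genotype means (r = 0.11 to 0.31 across genes). Of the unlike-numbered ones, h3.3kd 2 with Col 3 also reached 0.12. The main fit holds no replicate term, so the numbers entered only as a block in the alternatives. Same-numbered libraries of the other pairs of genotypes ranged from -0.18 to 0.16. The alternatives were other pseudocounts, low-value filters and scalings, the replicate block, robust eBayes, only the genotypes compared and each library left out. The block for h3.3kd and Col alone was added after the data were seen.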

Additional observations from a re-analysis of the deposited data

Results flagged for a closer look

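PR2 and PR5 passed the interaction term of the limma model over 12 libraries, which sets the effect of lowering H3.3 in h2a.z plants against that in Col, and neither call was firm. The difference was -2.028 on the log2 scale for PR2 (adjusted p = 0.020) and -1.884 for PR5 (adjusted p = 0.013). PR2 averaged 0.303 ± 0.344 TPM in h3.3kd;h2a.z, against 2.31 ± 0.425 in h2a.z, and 1.01 ± 0.71 TPM in h3.3kd, against 0.219 ± 0.19 in Col (SD, n = 3 each). PR5 was listed at 0 in all 3 h3.3kd libraries. PR2 passes the low-value filter only through its h2a.z libraries, where it is high. With a pseudocount of 0.5 the adjusted p of PR5 was 0.082, and with 0.1 it was 0.70 for PR5 and 0.086 for PR2, so neither gene is shown to differ independently of these choices.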

How the results depend on the processing

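Of 56 pairs of a member and a comparison, 44 kept their call under every alternative run, 12 did not, and 0 reversed. Pairs that were not called in the main fit and stayed so are counted as kept. PR2 was not tested under the filter on the mean, so that alternative is missing from its pairs. Of 52 such pairs of pathway genes named or counted, 33 kept it and 19 did not, with 0 reversed. The cause of these changes was not tested. TPM without read counts leaves the precision of low genes such as PR1, PR2 and WRKY54 unknown.

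Rescaling moved the median of all genes. It was -0.12 in h3.3kd against Col, -0.10 in h3.3kd;h2a.z against Col, -0.15 in h3.3kd;h2a.z against h2a.z and -0.17 in h3.3kd against h2a.z, and became -0.03, -0.01, -0.02 and -0.03 with median ratio rescaling and 0.02, 0.02, 0.06 and 0.05 with quantile normalization. Of all calls, 31.3%, 32.9%, 21.7% and 27.6% were higher in these 4 comparisons, against 48.0%, 45.8%, 37.9% and 43.0% with median ratio rescaling and 52.8%, 50.2%, 50.4% and 52.6% with quantile normalization. In h2a.z against Col the share was 69.8%, against 54.6% with quantile normalization.

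In h3.3kd against Col, the number of members lower was 2, and 1 without a filter on low values, with quantile normalization, with only the genotypes compared or with the replicate block over h3.3kd and Col. The number higher was 1, and 0 with only the genotypes compared or with that block. Of the pathway genes 4 were higher, and 8 with quantile normalization, 1 with only the genotypes compared and 1 with that block. In h3.3kd;h2a.z against Col, 1 member was higher with quantile normalization (ICS1, adjusted p = 0.016 by limma), and the number of pathway genes lower was 2, and 1 with either rescaling, 4 with a pseudocount of 0.1 and 4 with only the genotypes compared. In h3.3kd;h2a.z against h2a.z, 2 pathway genes were higher with quantile normalization. In h3.3kd;h2a.z against h3.3kd, the pathway count higher was 2, and 1 without a filter, with a mean filter of 1 TPM, with either rescaling or with the replicate block, and 0 with only the genotypes compared. The count lower was 1 with median ratio rescaling and 1 with the replicate block. In h3.3kd against h2a.z, 1 member was higher with either rescaling (ICS1, adjusted p = 0.036 and 0.0041). In the interaction, the number of members lower was 2, and 1 with a mean filter or a pseudocount of 0.5 and 0 with a pseudocount of 0.1, and the pathway count of 5 was 3 with a mean filter or a pseudocount of 0.1. The mean filter left PR2, WRKY51 and PCC1 untested, so the lower counts under it are not weaker results of these genes. PBS3 lost its call with quantile normalization in h2a.z against Col (0.053) and in h3.3kd against h2a.z (0.21). The replicate block over all 12 libraries changed no member's call.

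With single libraries left out, members higher numbered 0 to 2 and lower 1 to 2 in h3.3kd against Col, higher 5 to 6 in h2a.z against Col, higher 0 to 1 and lower 1 in h3.3kd;h2a.z against Col, lower 4 to 5 in h3.3kd;h2a.z against h2a.z, higher 0 to 1 in h3.3kd;h2a.z against h3.3kd, lower 5 to 6 in h3.3kd against h2a.z and lower 1 to 2 in the interaction. Pathway genes higher numbered 1 to 5 and lower 2 to 4 in h3.3kd against Col, higher 20 to 27 in h2a.z against Col, higher 4 to 9 and lower 1 to 4 in h3.3kd;h2a.z against Col, higher 1 and lower 17 to 24 in h3.3kd;h2a.z against h2a.z, higher 0 to 2 and lower 0 to 1 in h3.3kd;h2a.z against h3.3kd, and lower 3 to 7 in the interaction.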
